A study of Mus musculus with 7 samples.

Results

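The forkhead (Fox) transcription factor genes were described across 7 mouse cell populations that span a conversion in which fibroblasts become neural stem cells (NSC) under Oct4, Sox2, Klf4 and Myc (OSKM). The members are the protein-coding genes whose symbol is Fox, a letter from a to s, a number and at most 1 further letter, which gave 44 of 29686 genes measured. Each population had 1 RNA-seq library, so no value has a replicate error and no difference has a test. Strain, genotype, sex or culture cannot be told apart from the cell type. Values are RPKM, which divides reads by exon length and by library size, averaged over the exons of a gene with exon length as the weight.

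Before the conversion stood mouse embryonic fibroblasts (MEF) of strain A12, which carry Mbd3 flox/-. During it stood a day 6 population of strain B6/129 with a Nanog-CreER reporter, Rosa26-TdTomato from a B6 female and Col1a-OSKM from a 129 male. It had received doxycycline and 4OHT, was grown without MEF feeders and was sorted for tdTomato. After it stood NSC of the same strain and transgenes, which were subcloned mechanically, kept without feeders and either positive or negative for Nanog-Tomato. They are called T+ NSC and T- NSC here, and OSKM NSC together. CreER recombines its target when 4OHT is present, and a recombined reporter stays on. Set beside these were primary NSC from embryonic brain of BDF2 mice, for which the labels give both E12.5 and E13.5, induced pluripotent stem cells (iPSC) of strain A12 with Mbd3 flox/-, and v6.5 embryonic stem cells (ESC) grown with MEF feeders. For the iPSC the labels leave the feeders in question.

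Forkhead proteins share a winged-helix DNA-binding domain whose recognition helix lies in the major groove. Several of them, the FoxA proteins first, can bind their sites in closed chromatin and are called pioneer factors, whereas FoxO proteins are held in the cytoplasm by the kinase Akt and FoxM1 drives genes of mitosis. In the embryo, Foxa2 marks the floor plate that patterns the ventral neural tube, Foxc and Foxf genes the mesenchyme, and Foxd3 both pluripotent cells and the neural crest.

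The depth, inferred from the steps of the values, lay between 19000000 reads in T+ NSC and 58000000 in iPSC. All 12 fibroblast markers stood at 2 RPKM or more in MEF, and their summed level was 5.82% of the MEF level in T+ NSC, 10.6% in ESC and 0.02703% to 0.465% in the other 4 libraries. All 10 neural stem cell markers stood at 2 RPKM or more in the 3 NSC libraries and all 10 pluripotency markers in iPSC and ESC, whereas 8 of the 10 pluripotency markers did so on day 6. The MEF library also held 8 of 8 leukocyte markers and 7 of 7 muscle markers at 2 RPKM or more, summed to 3210 and 492 RPKM. Neuron markers summed to 55.7 RPKM in brain NSC to 649 on day 6, where Stmn2 alone had 609 RPKM and 3 of the 7 reached 2 RPKM; all 7 did so in T- NSC. On day 6, the gene model Gm42418 took 8.82% of the summed exon reads. That sum exceeded the inferred day 6 depth of 46000000 reads, since a read can count in several exons. Set against the depth, the Gm42418 exon reads were thus a larger share than 8.82%. The Y-linked gene Eif2s3y had 114 RPKM in MEF, 90.9 in iPSC and 103 in ESC, and 0 on day 6 and in the NSC libraries. The X-linked RNA Xist had 447 RPKM in brain NSC and at most 4.56 elsewhere.

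Of the 44 members, 32 reached 2 RPKM in at least 1 library and 13 in all 7. Another 10 reached it in exactly 1 library and 9 in 2 to 6 libraries. Between 16 members (day 6, T- NSC, brain NSC and ESC) and 22 members (T+ NSC) stood at 2 RPKM or more, with 21 in MEF and 17 in iPSC. The most abundant member per length was Foxo4 in MEF (34.5 RPKM) and Foxp4 on day 6 (88.1). It was Foxk2 in T+ NSC (84.1), T- NSC (76.8) and brain NSC (83.8), and Foxh1 in iPSC (58.5) and ESC (43.9). The leading gene thus differed between MEF and day 6, while the NSC libraries shared one, and so did the pluripotent libraries. In MEF the lead was narrow, with Foxk2 at 31.8 RPKM, and Foxo4 was higher on day 6 (65.8) than in MEF.

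**Figure D1:**
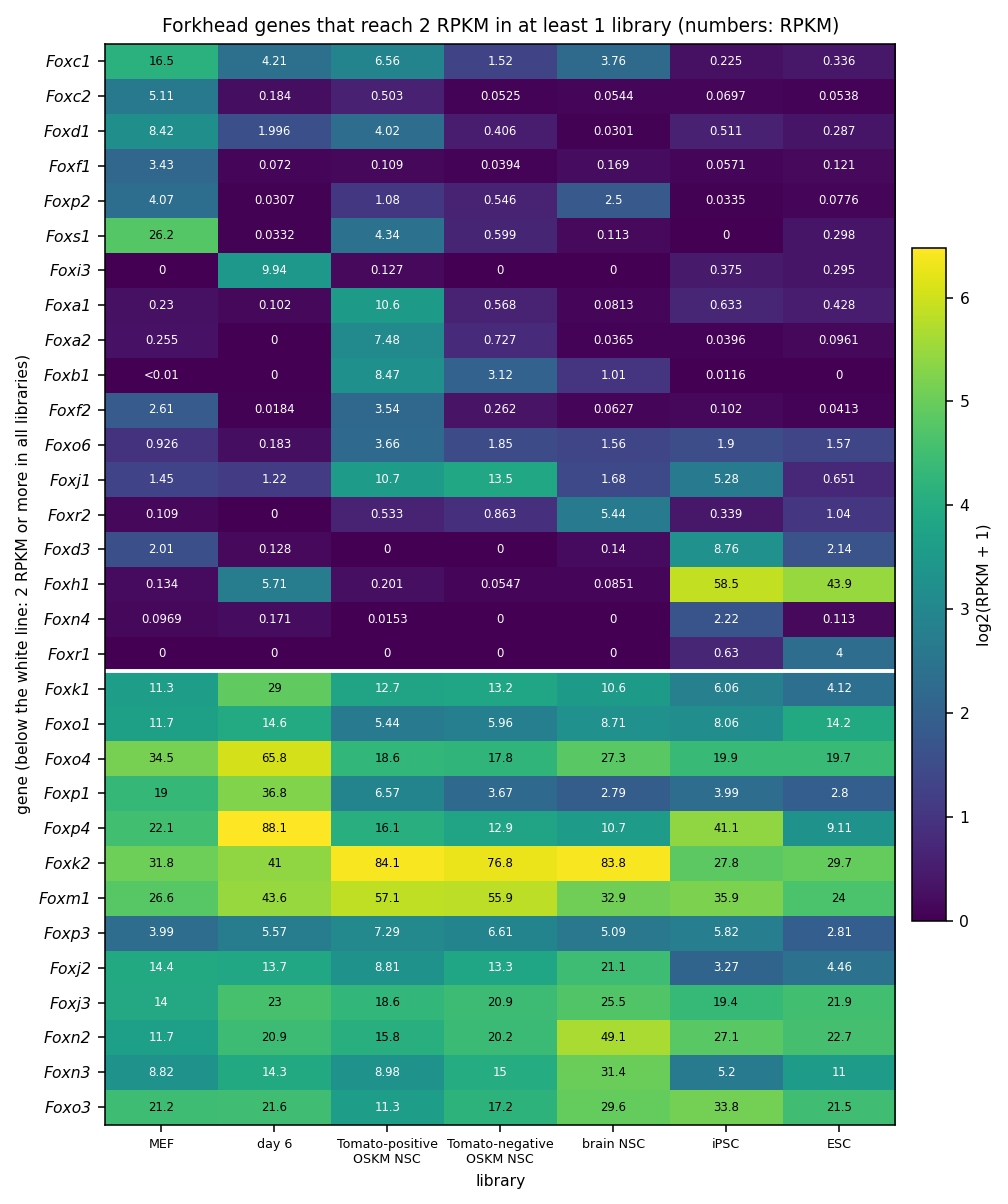
Level of forkhead genes that reach 2 RPKM in at least 1 of 7 libraries; colour gives log2(RPKM + 1) and each cell holds its RPKM. Foxh1 stands out in iPSC and ESC, Foxi3 on day 6, and Foxa1 and Foxa2 in T+ NSC, while 13 genes stand at 2 RPKM or more in every library.

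A member was counted as higher or lower where the ratio of RPKM + 1 was at least 4-fold in every pair of libraries compared, among genes at 2 RPKM or more in any of them. On day 6 against MEF, 6 of 23 members passed, where 24.4% of all genes did; 2 were higher (all genes 8.23%) and 4 lower (16.1%). In both OSKM NSC libraries against day 6, 6 of 25 passed (all genes 13.8%), 2 higher (8.54%) and 4 lower (5.23%). Against MEF, 4 of 27 passed in OSKM NSC (all genes 11.5%), 2 higher (3.81%) and 2 lower (7.66%). Against brain NSC, 1 of 25 passed (all genes 3.07%), 1 higher (1.97%) and 0 lower (1.1%).

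In T+ NSC against T- NSC, 2 of 23 members passed (all genes 3.65%), 2 higher (2.77%) and 0 lower (0.881%). In brain NSC against MEF, 5 of 22 passed (all genes 20.5%), 1 higher (7.24%) and 4 lower (13.3%). In iPSC and ESC against MEF, 7 of 25 passed (all genes 16.4%), 1 higher (7.44%) and 6 lower (9.01%). On day 6 against iPSC and ESC, 4 of 20 passed (all genes 10.2%), 3 higher (3.47%) and 1 lower (6.7%), and in iPSC against ESC 1 of 18 passed (all genes 5.68%), 1 higher (1.29%) and 0 lower (4.39%). With so few members, each share rests on a handful of genes, and comparisons with a library in common share its errors.

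**Figure D2:**
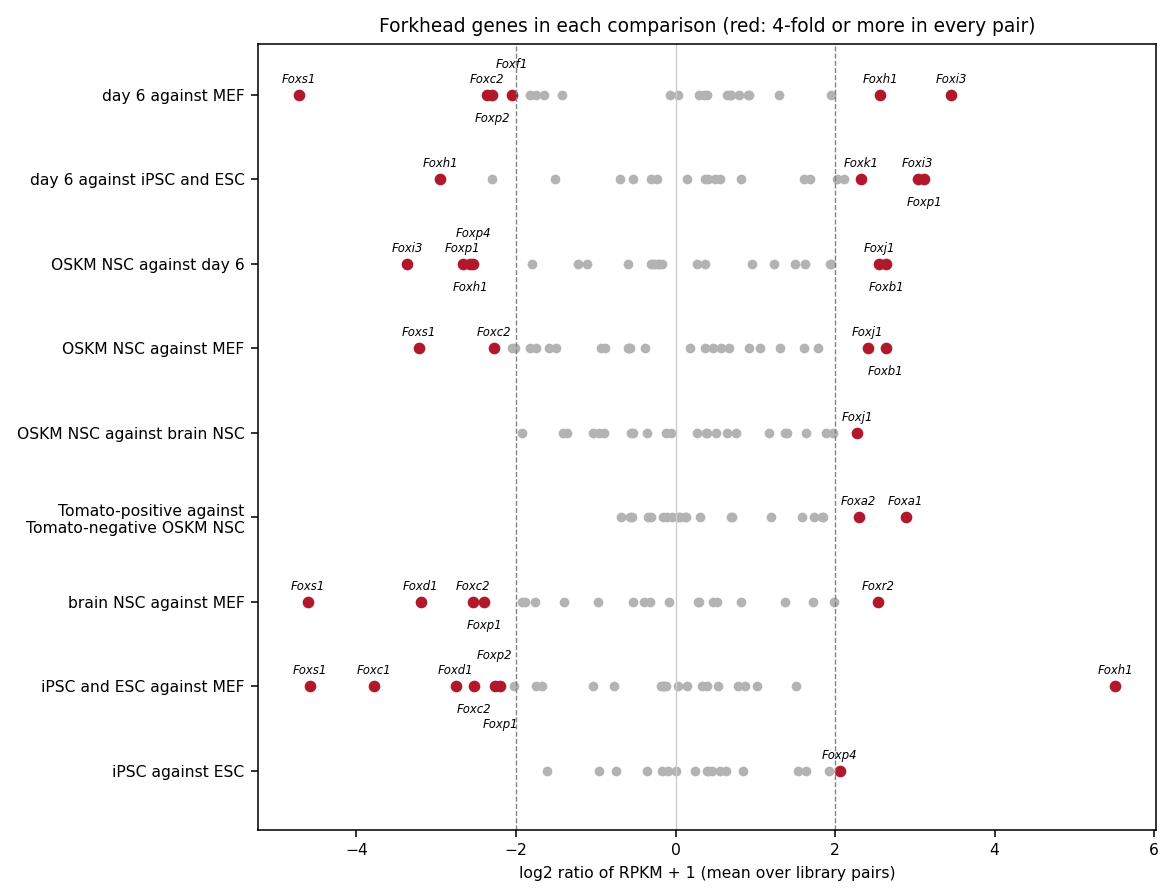
Log2 ratio of RPKM + 1 for forkhead genes tested in 9 comparisons, with the first named population over the second. Red points passed 4-fold in every pair of libraries and are named, from 7 in iPSC and ESC against MEF to 1 in iPSC against ESC.

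Among the factors of neural patterning, Foxa1 and Foxa2 were higher in T+ NSC than in T- NSC. Foxa1 (ENSMUSG00000035451, chr12:57540628-57546121, mm10) is a pioneer factor of endoderm and of the ventral midline, and for it MEF had 0.2301 RPKM, day 6 cells 0.102, T+ NSC 10.6, T- NSC 0.568, brain NSC 0.0813, iPSC 0.633 and ESC 0.428. Foxa2 (ENSMUSG00000037025, chr2:148042877-148046969) acts with sonic hedgehog in the floor plate, and for it MEF had 0.255 RPKM, day 6 cells 0, T+ NSC 7.48, T- NSC 0.727, brain NSC 0.0365, iPSC 0.0396 and ESC 0.0961. Both genes were above 1 RPKM in T+ NSC and in no other library. The T+ NSC level was 18.6-fold that of T- NSC for Foxa1. For Foxa2 it was 10.3-fold, with a 95% Clopper-Pearson interval of the read ratio of 5.43 to 12.2, which covers counting error only. With a pseudocount of 4 RPKM in place of 1, neither gene passed.

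The 300 bases around the start of each of these genes are shown because the pair moved together (RefSeq, GRCm38.p6, from 250 bases before the start to 50 after it, 5′ to 3′ on the strand of the gene). Capitals mark matches to CCAAT or to the forkhead motif GTAAACA, searched on both strands beside TTTGAA. For Foxa2 the window lies at the downstream first exon, since both upstream first exons stood at 0 RPKM in all 7 libraries.
Foxa1, chr12:57546062-57546361, minus strand: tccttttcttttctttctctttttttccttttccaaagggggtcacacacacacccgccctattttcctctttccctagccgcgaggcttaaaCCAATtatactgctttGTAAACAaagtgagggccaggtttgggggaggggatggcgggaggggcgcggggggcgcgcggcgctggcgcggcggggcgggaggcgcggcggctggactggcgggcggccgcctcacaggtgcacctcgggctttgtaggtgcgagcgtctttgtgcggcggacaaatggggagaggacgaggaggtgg
Foxa2, chr2:148045899-148046198, minus strand: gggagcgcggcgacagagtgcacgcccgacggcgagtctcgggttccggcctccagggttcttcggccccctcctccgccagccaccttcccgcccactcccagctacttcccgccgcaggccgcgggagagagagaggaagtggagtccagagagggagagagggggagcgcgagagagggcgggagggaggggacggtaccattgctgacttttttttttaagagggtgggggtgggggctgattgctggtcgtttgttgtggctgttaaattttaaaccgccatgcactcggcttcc
GTAAACA occurs in at least 1 window of 4.05% of 27025 genes and in 1 of the 28 members that the table holds, Foxa1. None of the 3 motifs occurs in the Foxa2 window shown. The table holds 3 windows for Foxa2, and CCAAT occurs in 1 of the others.

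Of 8 genes of the floor plate and ventral midline, 7 were tested in the same comparison and 3 were higher in T+ NSC, where 2.77% of all genes were. Shh, the ventral signal itself, had 38.3 RPKM in T+ NSC and 1.34 in T- NSC. Nkx6-1, a ventral homeobox gene, had 14.8 and 0.125, and Lmx1a, a factor of the floor plate and of dopaminergic progenitors, 8.65 and 0.491 RPKM. Nkx2-2 and Spon1 did not pass: Nkx2-2 had 8.78 RPKM in T+ NSC and 15.6 in T- NSC, and Spon1 100.4 and 118. None of 8 endoderm partners of the FoxA factors reached 2 RPKM in either line. Of 8 forebrain genes, 1 of 6 tested passed between the lines, where 3.65% of all genes did. It was Lhx2, a homeobox gene of the cortex, at 0.9499 RPKM in T+ NSC and 13.1 in T- NSC. 

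The lines also differed in markers of other cell types. Over all genes, 2.77% were higher and 0.881% lower in T+ NSC. Of 12 fibroblast markers, 9 were higher in T+ NSC (sum 2237 RPKM against 179 in T- NSC, none at 0). Of 9 epithelial markers 6 were tested and 3 were higher in T+ NSC (sum 143 RPKM against 18.9, none at 0). All 3 are keratin genes: Krt8 had 57.8 RPKM in T+ NSC and 3.05 in T- NSC, Krt18 34.8 and 2.62, and Krt19 40.6 and 9.17. Epcam, at 4.08 and 2.21 RPKM, and Cdh1, at 2.19 and 0.791, did not pass. Of 7 endothelial markers 3 were tested and 2 were higher in T+ NSC (sum 21.9 RPKM against 3.19). The leukocyte marker Lyz2 (9.06 RPKM in T+ NSC against 0.1501 in T- NSC) and the neuron marker Stmn2 (27.6 against 5.75) were also higher, each as the single one of its list. Of 10 neural stem cell markers 1 was lower in T+ NSC, Bcan, a proteoglycan gene of brain (65.8 RPKM against 496 in T- NSC). The part of these markers in the forkhead and floor plate values was not tested.

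**Figure D3:**
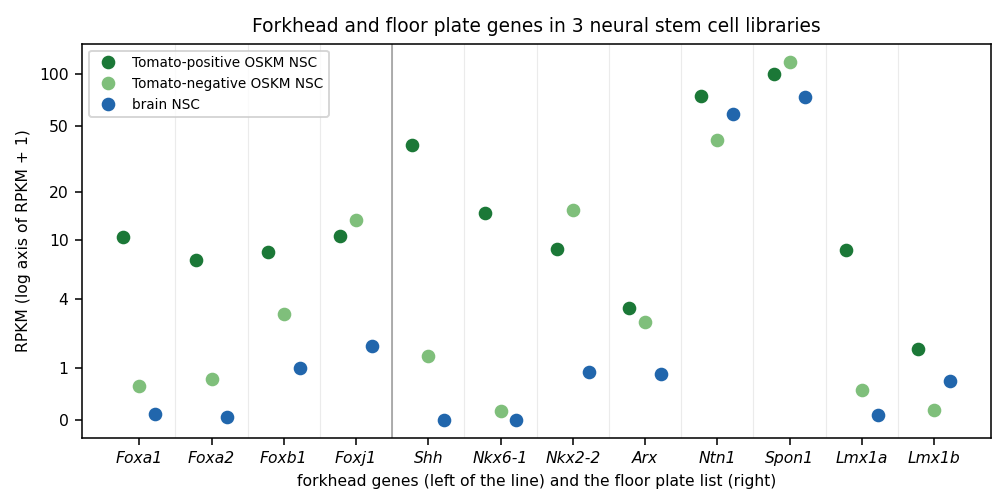
RPKM, on a log axis of RPKM + 1, of 4 forkhead genes and 8 floor plate genes in the 3 NSC libraries, 1 point per library. Foxa1, Foxa2, Shh, Nkx6-1 and Lmx1a stand at 7.48 RPKM or more in T+ NSC and under 2 RPKM in T- NSC and brain NSC.

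Foxb1 (ENSMUSG00000059246, chr9:69757710-69760940), a gene of the mammillary region and the spinal cord, was highest in the NSC libraries: MEF had 0.00745 RPKM, day 6 cells 0, T+ NSC 8.47, T- NSC 3.12, brain NSC 1.01, iPSC 0.0116 and ESC 0. Against day 6, with no read, it was at least 387-fold higher in T+ NSC and at least 143-fold higher in T- NSC, with 3 reads per library as the floor. The exon that holds 86.8% of its length shares bases with B230323A14Rik, an antisense gene at 5.51 and 6.43 RPKM in T+ and T- NSC and 0 to 0.623 elsewhere. Without strand the 2 genes cannot be told apart there. The exon that shares no base had 2.01 RPKM in T+ NSC, 1.82 in T- NSC, 0.754 in brain NSC and 0 elsewhere, and on it alone Foxb1 did not pass 4-fold against day 6 or MEF.

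Foxj1 (ENSMUSG00000034227, chr11:116330704-116335399), the master gene of motile cilia, was higher in both OSKM NSC libraries than in MEF, day 6 and brain NSC: MEF had 1.45 RPKM, day 6 cells 1.22, T+ NSC 10.7, T- NSC 13.48, brain NSC 1.68, iPSC 5.28 and ESC 0.651. T+ NSC stood 6.35-fold above brain NSC (95% interval 5.199 to 7.82, by counting), and T- NSC 8.02-fold (6.65 to 9.75). This was the single member to pass against brain NSC, and it no longer did so when libraries were scaled to equal totals or by median of ratios. Under median of ratios it did not pass against MEF either. Of 14 genes of the motile cilia program, 6 were tested against brain NSC and 1 passed, the ciliary transcription factor gene Rfx2, at 8.0996 and 7.51 RPKM in T+ and T- NSC against 0.696 in brain NSC. Of the 14, 6 stood at 2 RPKM or more in T+ NSC, 4 in T- NSC and 2 in brain NSC. Some other genes of the list, chosen after their values were seen, were low in every library. The upstream regulators Mcidas and Gmnc did not exceed 0.244 RPKM, and the dynein genes Dnah5 and Dnah9 did not exceed 0.212.

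The mesenchymal members were highest in MEF, except Foxf2, and low in the pluripotent libraries. Foxs1 (ENSMUSG00000074676, chr2:152931898-152933208), a gene of perivascular cells and sensory neurons, followed this closely: MEF had 26.2 RPKM, day 6 cells 0.0332, T+ NSC 4.34, T- NSC 0.599, brain NSC 0.113, iPSC 0 and ESC 0.298. In iPSC, with no read, it was at least 664-fold lower than in MEF. Foxs1 and Foxc2 were the members lower than in MEF in all 4 comparisons with MEF, Foxc2 no longer so in OSKM NSC when libraries were scaled to equal totals. Of 13 mesenchymal partner genes, 8 were lower (all genes 16.1%) and 1 was higher (8.23%) on day 6 than in MEF.

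Foxc1 (ENSMUSG00000050295) patterns cranial and somitic mesenchyme, and for it MEF had 16.5 RPKM, day 6 cells 4.21, T+ NSC 6.56, T- NSC 1.52, brain NSC 3.76, iPSC 0.225 and ESC 0.336. Foxc2, its close relative in mesenchyme and lymphatic vessels, had 5.11 RPKM in MEF and between 0.0525 and 0.503 elsewhere. Foxd1, a factor of the renal stroma, varied more widely: MEF had 8.42 RPKM, day 6 cells 1.996, T+ NSC 4.02, T- NSC 0.406, brain NSC 0.0301, iPSC 0.511 and ESC 0.287. The depth of the difference varied between these genes: on day 6 Foxc1 and Foxd1 stood at 25.5% and 23.7% of their MEF level, and Foxs1 at 0.127%.

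Foxf1, needed in lateral mesoderm and lung mesenchyme, had 3.43 RPKM in MEF and 0.0394 to 0.169 elsewhere. Foxf2 is its paralog in gut, palate and brain pericytes, and for it MEF had 2.61 RPKM, day 6 cells 0.0184, T+ NSC 3.54, T- NSC 0.262, brain NSC 0.0627, iPSC 0.102 and ESC 0.0413. In T+ NSC Foxf2 thus stood at 135% of its MEF level, Foxd1 at 47.7%, Foxc1 at 39.6%, Foxs1 at 16.6%, Foxc2 at 9.84% and Foxf1 at 3.17%. The 12 fibroblast markers, none of them at 0 in any library, stood there at 5.82% of their summed MEF level. Marker by marker the share ran from 0.426% (Acta2) to 97.8% (Lum), with a median of 15.1%, so Foxc2, Foxf1, Foxs1, Foxc1 and Foxd1 lie within the range of the markers in T+ NSC. Of the same 13 partner genes 12 were tested between the lines and 4 were higher in T+ NSC (all genes 2.77%). Among them was Pdgfrb, a growth factor receptor gene of mesenchyme and pericytes (22.5 RPKM in T+ and 1.34 in T- NSC). In bulk RNA, fewer cells of a type and less RNA per cell cannot be told apart, and the part of the fibroblast markers in these levels was not tested. In ESC, grown with feeders, the markers stood at 10.6% of the MEF sum while the 6 members stood at 1.05% to 3.53%. Single markers in ESC stood at 0.532% (Tagln) to 199.9% (Lum) of MEF, with a median of 13.7%, so the 6 members lie within that range too.

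**Figure D4:**
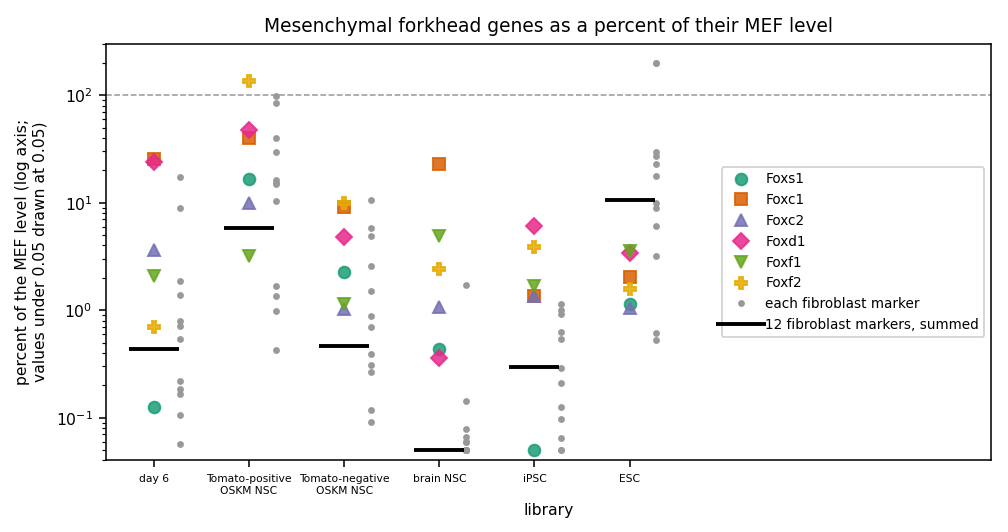
Level of 6 mesenchymal forkhead genes as a percent of their own MEF level, on a log axis, in the 6 libraries other than MEF, with each of 12 fibroblast markers (grey points) and their sum (black bars) beside them. In T+ NSC the markers spread from 0.426% to 97.8% and in ESC from 0.532% to 199.9%, and in T+ NSC Foxf2 alone lies above their range.

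Foxh1 led the members of pluripotent cells. Foxh1 (ENSMUSG00000033837, chr15:76668225-76669948) is the DNA-binding partner of Smad2 and Smad3 in Nodal signalling, and for it MEF had 0.134 RPKM, day 6 cells 5.71, T+ NSC 0.201, T- NSC 0.0547, brain NSC 0.0851, iPSC 58.5 and ESC 43.9. It was 438-fold higher in iPSC and 328-fold higher in ESC than in MEF. Day 6 lay between, 42.7-fold above MEF, and both OSKM NSC libraries lay near MEF.

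Of 11 Nodal and Smad partners, 3 were higher on day 6 than in MEF (all genes 8.23%). The same 3 were higher in iPSC and ESC than in MEF (7.44%) and lower in OSKM NSC than on day 6 (5.23%). Tdgf1, the Nodal coreceptor, had 51.05 RPKM in day 6 cells; iPSC had 343 and ESC 309, against 0.196 for MEF. Nodal itself had 4.17, 115 and 23.4 RPKM, against 0.138, and Lefty2, a Nodal inhibitor, 50.3, 141 and 12.8, against 0.0988. On day 6, 2 of the 11 were lower than in MEF (all genes 16.1%), among them Drap1, a corepressor that binds Foxh1, at 79.5 RPKM against 324. Drap1 did not pass when libraries were scaled to equal totals. Smad2, chosen after its values were seen, ran from 25.2 to 49.7 RPKM over the 7 libraries.

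Foxd3 (ENSMUSG00000067261, chr4:99656299-99658622) is needed to keep the epiblast and later the neural crest, and for it MEF had 2.01 RPKM, day 6 cells 0.128, T+ NSC 0, T- NSC 0, brain NSC 0.1405, iPSC 8.76 and ESC 2.14. Its single exon also holds the miRNA gene model Gm23366. Day 6 had little Foxd3, which was lower past 4-fold against iPSC but not against ESC. Of 10 pluripotency markers, 8 stood at 2 RPKM or more on day 6. Yet 7 of the 10 were lower there than in iPSC and ESC, where 6.7% of all genes were. The markers summed to 293 RPKM on day 6, 5863 in iPSC and 8560 in ESC. Of 8 neural crest genes, 6 were lower on day 6 than in MEF (all genes 16.1%), and Tfap2a was higher, at 38.3 RPKM against 4.83. In iPSC and ESC 5 of the 8 were lower than in MEF (all genes 9.01%).

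Foxn4, a gene of retinal and spinal interneurons, passed 2 RPKM in iPSC alone (2.22) and had at most 0.171 elsewhere. Foxr1, a gene of the germ line, had 3.996 RPKM in ESC, 0.6296 in iPSC and 0 in the other 5 libraries.

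Foxi3 (ENSMUSG00000055874, chr6:70956531-70961066), a factor of cranial placodes and epidermal appendages, passed 2 RPKM on day 6 alone: MEF had 0 RPKM, day 6 cells 9.94, T+ NSC 0.127, T- NSC 0, brain NSC 0, iPSC 0.375 and ESC 0.295. Day 6 was at least 179-fold higher than MEF, 26.5-fold higher than iPSC (95% interval 18.005 to 40.5, by counting) and 33.8-fold higher than ESC (20.3 to 60.6). Of 9 epithelial genes, 8 were also higher on day 6 than in MEF (all genes 8.23%). Among them were Epcam (559 RPKM against 3.94), Cdh1 (275 against 4.46) and Krt8 (365 against 8.52). Against iPSC and ESC 5 of the 9 were higher on day 6 (all genes 3.47%). Cdh1 and Cldn4 were higher in ESC (391 and 140 RPKM) than on day 6 (275 and 74.7), unlike Foxi3. All 9 stood at 2 RPKM or more on day 6, with none at 0, and summed to 1739 RPKM there; iPSC had a sum of 288, ESC of 764 and MEF of 88.1. Their part in the Foxi3 level was not tested.

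Foxp4, Foxp1 and Foxk1 were also highest on day 6. Foxp4 is a repressor of lung and gut epithelium, and for it MEF had 22.1 RPKM, day 6 cells 88.1, T+ NSC 16.1, T- NSC 12.9, brain NSC 10.7, iPSC 41.1 and ESC 9.11. On the log2 scale it was 1.95 above MEF on day 6, short of 4-fold, and in OSKM NSC against day 6 its log2 ratios were -2.38 and -2.69. It was the single member to differ past 4-fold between iPSC and ESC, by 2.06, and it did not pass by its highest exon or with a pseudocount of 4 RPKM.

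Foxp1, a regulator of lymphoid, heart and motor neuron development, was high on day 6 and in MEF: MEF had 19.01 RPKM, day 6 cells 36.8, T+ NSC 6.57, T- NSC 3.67, brain NSC 2.79, iPSC 3.99 and ESC 2.805. It was 9.22-fold higher on day 6 than in iPSC and 13.1-fold higher than in ESC. Foxk1, a factor of glycolysis and muscle progenitors, was higher on day 6 than in both pluripotent libraries: MEF had 11.3 RPKM, day 6 cells 29.04, T+ NSC 12.7, T- NSC 13.2, brain NSC 10.6, iPSC 6.06 and ESC 4.12. Foxp2, known for its role in vocal learning circuits, was near 0 on day 6, in iPSC and in ESC: MEF had 4.07 RPKM, day 6 cells 0.0307, T+ NSC 1.08, T- NSC 0.546, brain NSC 2.496, iPSC 0.0335 and ESC 0.0776.

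Foxr2 (ENSMUSG00000071665, chrX:153118786-153132861), known as an oncogene in neural tumours, was highest in brain NSC: MEF had 0.109 RPKM, day 6 cells 0, T+ NSC 0.533, T- NSC 0.863, brain NSC 5.44, iPSC 0.339 and ESC 1.04. It was 49.8-fold higher in brain NSC than in MEF (95% interval of the read ratio 36.3 to 125, by counting), and it did not pass in both OSKM NSC libraries against brain NSC. Foxo6, the brain FoxO gene, passed 2 RPKM in T+ NSC alone: MEF had 0.926 RPKM, day 6 cells 0.183, T+ NSC 3.66, T- NSC 1.85, brain NSC 1.56, iPSC 1.899 and ESC 1.57.

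The 13 members at 2 RPKM or more in every library are FoxO, FoxK, FoxJ, FoxN and FoxP genes and Foxm1. With exons that share bases with another gene left out, 12 of them did so and Foxp3 did not. Its 13 own exons reached 2 RPKM in T- NSC and brain NSC alone, on 11 to 15 and 5 to 11 reads per exon. The highest level of each of the 13 was 1.83 to 13.2 times its lowest, with a median of 3.69, and the same median over the 10999 genes at 2 RPKM or more in all libraries was 3.53. Foxj3 varied least (13.97 RPKM in MEF to 25.5 in brain NSC), and Foxp1 most.

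Foxm1 (ENSMUSG00000001517, chr6:128362967-128376146), the mitotic factor, passed 4-fold in no comparison: MEF had 26.6 RPKM, day 6 cells 43.6, T+ NSC 57.1, T- NSC 55.9, brain NSC 32.9, iPSC 35.9 and ESC 23.98. Of its 16 cell cycle targets, 1 was higher on day 6 than in MEF, where 8.23% of all genes were. It was the kinetochore motor gene Cenpe (81.1 RPKM against 19.3), which did not pass under median of ratios. None of the 16 targets passed in the remaining 8 comparisons. Their sum ran from 643 RPKM in brain NSC to 2589 in ESC, the library with the lowest Foxm1. Of 14 targets with a promoter window, TTTGAA, the core of the cell cycle homology region, occurred in 8 and CCAAT in 13, against 20.2% and 41.1% of all 27025 genes. GTAAACA occurred in 0 of the 14, against 4.05% of all genes. Of the Foxm1 exon length, 53.2% shares bases with another gene model (Gm44596 or Tex52).

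The FoxO genes are the effectors that Akt restrains. Foxo1 ran from 5.44 RPKM in T+ NSC to 14.6 on day 6, Foxo3 from 11.3 in T+ NSC to 33.8 in iPSC, and Foxo4 from 17.8 in T- NSC to 65.8 on day 6. None passed 4-fold in any comparison. Of 15 FoxO targets, 6 were lower on day 6 than in MEF and 0 were higher, where 16.1% of all genes were lower. They included Txnip, an inhibitor of thioredoxin (33.2 RPKM on day 6 against 619 in MEF), Ccng2, an atypical cyclin (4.62 against 64.6), Cited2 (6.42 against 63.2) and Pdk4, which spares glucose (0.2496 against 8.19). In OSKM NSC against day 6, 3 of 14 tested targets were higher (all genes 8.54%) and 0 lower (5.23%). The 3 were Bcl6, Ccng2 and Cdkn1b, none of which passed under median of ratios. Of 14 FoxO targets with a promoter window, GTAAACA occurred in 3, CCAAT in 11 and TTTGAA in 1, against 4.05%, 41.1% and 20.2% of all genes.

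Among 10 regulators upstream of FoxO, 1 passed on day 6 against MEF, where 24.4% of all genes did. It was Sgk1, a kinase that also phosphorylates FoxO proteins, at 0.593 RPKM on day 6 against 13.3 in MEF. In iPSC and ESC 2 were higher than in MEF (all genes 7.44%) and 1 lower (9.01%). The last was Akt1, at 47.9 (iPSC) and 48.3 RPKM (ESC) against 309 in MEF. These are RNA levels, and phosphorylation was not measured.

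Foxk2, a relative of Foxk1 that represses autophagy genes, stood close together in the 3 NSC libraries and above the other 4, without passing 4-fold: MEF had 31.8 RPKM, day 6 cells 41.03, T+ NSC 84.1, T- NSC 76.8, brain NSC 83.8, iPSC 27.8 and ESC 29.7. Foxn2 was highest in brain NSC, at 49.1 RPKM, and had 11.7 to 27.1 elsewhere. Foxj2 had 21.1 RPKM in brain NSC but 3.27 and 4.46 in the pluripotent libraries iPSC and ESC, with 8.81 to 14.4 in the other 4 libraries. Foxn3, a repressor in the cell cycle checkpoint, was highest in brain NSC: MEF had 8.82 RPKM, day 6 cells 14.3, T+ NSC 8.98, T- NSC 14.996, brain NSC 31.4, iPSC 5.204 and ESC 11.01.

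Levels by exon showed a difference within Foxn3. Exon 6 of 19 (chr12:99388361-99388917, mm10) served as the reference. An upstream exon of 85 bases, chr12:99450025-99450109, stood at 80.03% of exon 6 in T+ NSC, 79.8% in T- NSC and 81.7% in brain NSC. For MEF the share was 3.15%, for day 6 cells 4.57%, for iPSC 6.704% and for ESC 3.95%. The 3 NSC shares thus lay near each other and far above those of the other 4 libraries. How near they are is uncertain: in T+ NSC, the shallowest library, exon 6 of 557 bases held only 96 reads, and the upstream exon is shorter. The shares outside the NSC libraries rest on low levels of this short exon, 0.255 RPKM in MEF to 0.561 in ESC, against 7.26 in T+ NSC to 28.1 in brain NSC. The reads of this exon did not come out whole at the length given, so no counting interval is given.

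The 3 exons between them also had their highest shares in the NSC libraries. In each of those libraries all 3 held the same number of reads, so their shares there follow exon length. The exon at chr12:99412469-99412605 stood at 39.3% to 43.8% of exon 6 per length in the NSC libraries, against 0% (day 6, with no read, up to 5.39%) to 10.04% (ESC) in the other 4; the 95% interval of ESC reached 20.02% and that of T+ NSC began at 19.7%. The next exon stood at 42.1% to 46.8% in the NSC libraries, against 6.22% to 18.8%. There the 95% interval of ESC (10.2% to 32.01%) overlapped that of T+ NSC (21.1% to 87.02%). Exon 5 stood at 16.8% to 18.7% in the NSC libraries, against 3.42% to 8.68%, and the day 6 interval (4.68% to 14.8%) overlapped those of all 3 NSC libraries, brain NSC (12.3% to 22.5%), T- NSC (13% to 26.1%) and T+ NSC (8.3997% to 34.7%). Overlapping intervals do not decide whether exon 5 differed between the NSC libraries and day 6, and this was not tested.

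These 3 exons each held 50 reads in brain NSC, 38 in T- NSC and 10 in T+ NSC, whatever their length, so within those libraries they are not separate measurements. Their shares alone do not show that each of the 3 is used. On day 6 the 3 exons held 0, 4 and 14 reads. Over 4791 genes, the median ratio of 5′ to 3′ exon coverage ran from 0.401 in MEF to 0.633 on day 6, with 0.597, 0.6003 and 0.575 in T+, T- and brain NSC. The part of 5′ coverage in the Foxn3 shares was not tested.

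**Figure D5:**
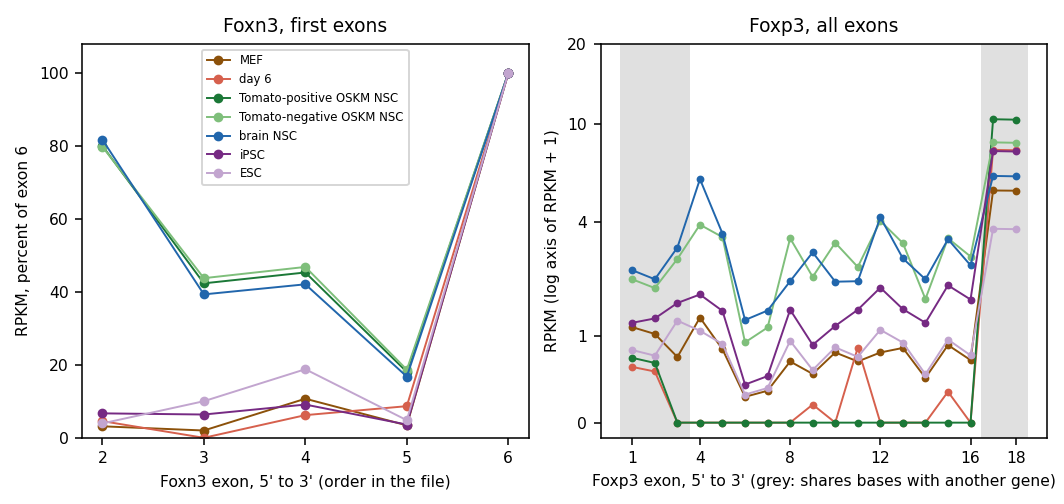
Left, RPKM of Foxn3 exons 2 to 6 as a percent of exon 6, 1 line per library; the 3 NSC libraries stand at 79.8% to 81.7% on exon 2 and the other 4 at 3.15% to 6.704%. Right, RPKM of the 18 Foxp3 exons on a log axis of RPKM + 1, with exons that share bases with another gene in grey.

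Foxp3, the determinant of regulatory T cells, had 2.81 to 7.29 RPKM by its exon mean, most of it from exons shared with a neighbour. The 2 terminal exons, which share bases with Ccdc22 on the other strand, had 3.74 RPKM in ESC to 10.4 in T+ NSC, and Ccdc22 itself 14.2 to 53.3 in the same libraries. The 13 exons that share no base had 0 RPKM in T+ NSC, 2.31 in T- NSC, 2.42 in brain NSC and 0.0812 to 1.12 in the other 4. In MEF 12 of these 13 held 3 reads each whatever their length, so they are not separate measurements. The range over the 13 was likewise narrow in ESC (3 to 4 reads) and T- NSC (11 to 15), with 5 to 11 in brain NSC. Their RPKM thus rests on few reads. The order of the libraries by the Foxp3 mean differed from that by its own exons, which is uncertain at so few reads.

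Foxh1 differed within the gene on day 6. Its middle exon, chr15:76669229-76669333, held 6 reads on day 6 against 84 in the first exon, or 23.4% per length (95% interval 8.35% to 53.1%). In iPSC the share was 249% (223% to 277%) and in ESC 229% (198% to 264%), so the day 6 interval lies below both. Foxk2 had exon 1, chr11:121259990-121260522, at 30.4% of exon 9 on day 6 and at 0.767% to 4.12% in the other 6 libraries. Foxk1 exon 1 stood at 58.1% of exon 9 on day 6, against 7.15% to 24.5% elsewhere. Day 6 also had the highest 5′ coverage over all genes, as given above, and its part in the Foxk1 and Foxk2 values was not tested.

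The remaining 12 members stayed under 2 RPKM in all 7 libraries. They were Foxa3, Foxb2, Foxd2, Foxd4, Foxe1, Foxe3, Foxi1, Foxi2, Foxl1, Foxl2, Foxn1 and Foxq1, with a highest value of 1.02 RPKM for Foxa3, a further FoxA gene, in iPSC. Foxe3, a lens gene, and Foxi1, a gene of ion-transporting epithelia, stood at 0 in all libraries.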

How the data were processed

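RNA was sequenced from 7 populations, 1 library each, with TruSeq RNA v2 kits per the labels' protocols. The deposited values are RPKM per Ensembl exon, a unit inferred from the values. The submitters' processing notes list TopHat2 2.0.10, Bowtie, CASAVA 1.8.2 and bedtools, with mm10 as the build, and give no roles. Of 279252 exons, 270168 (96.7%) were matched by ID to GENCODE M21, and 9084 were left out. A gene's level is the length-weighted mean of its exons. Exons sharing bases with another gene (14816) were kept, and strand was not used.

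Depth was inferred as the step, a whole number of megareads, at which RPKM times length gave whole reads, within 0.01 read plus 1e-05 of the value, for 96.2% to 96.6% of low values. Reads were recovered for 29 members whose exons held whole reads over at least 80% of their length. Intervals are 95% Clopper-Pearson intervals of the ratio of recovered reads, which can differ from the RPKM ratio, and are printed where they hold the RPKM ratio. Intervals and the floor of 3 reads cover counting error only, and a spliced read can count in several exons.

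Ratios are log2((a + 1)/(b + 1)) in RPKM, counted at 4-fold or more in every pair, among genes at 2 RPKM or more in any compared library, in 9 comparisons. With 1 library per group there is no test. Both steps were also run on simulated Poisson counts at the inferred depths. These hold no variation between libraries of a group, so the run says nothing about that variation. Every member is in the counts, and a few items, with the results that need them, are not reported here; up to 4 genes of a list are named by the size of their ratio, and other list genes were chosen after their values were seen. An exon met the rule for naming where its share of its gene changed 4-fold between libraries with the gene at 5 RPKM or more and at least 20 reads due. Not every exon that met it is described. Exons of Foxp1 (6), Foxp4 (5), Foxn2 (4), Foxo3 (4), Foxj2 (1), Foxj3 (1), Foxm1 (1) and Foxo4 (1) met it and are left out. The members and the 18 gene lists were chosen with earlier results of these data known. Alternatives were 2 scalings, 2 pseudocounts, 2 floors, the highest exon, leaving out shared exons and, chosen after seeing the data, leaving out a library. Python 3.11.15 and pandas were used.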

Additional observations from a re-analysis of the deposited data

How the results depend on the processing

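No forkhead gene counted as higher or lower reversed under any alternative run. For genes of the 18 lists the 8 settings other than leaving out a library were run after seeing the data: of 426 calls none reversed, 295 passed with a pseudocount of 4 RPKM, 391 with a floor of 8 RPKM, 408 under median of ratios and 414 to 426 under the others, where leaving out shared exons gave 415 of 416 with a value. Counts of members moved by over 1.5 times in these cases. Scaled to equal totals, 0 members passed in OSKM NSC against brain NSC (1 as deposited) and 2 in iPSC against ESC (1); scaled by median of ratios, 0 passed in OSKM NSC against brain NSC. With a floor of 8 RPKM, 1 passed in T+ NSC against T- NSC (2), 3 in brain NSC against MEF (5) and 2 on day 6 against MEF (6). With the highest exon of a gene, 2 passed in OSKM NSC against brain NSC, 8 in brain NSC against MEF, 11 on day 6 against MEF and 2 in iPSC against ESC, where Foxp4 was lost. With a pseudocount of 0.25 RPKM, 2 passed in OSKM NSC against brain NSC, 6 in T+ NSC against T- NSC, 10 in brain NSC against MEF and 4 in iPSC against ESC. With a pseudocount of 4 RPKM, 0 passed in OSKM NSC against MEF (4), against brain NSC, in T+ NSC against T- NSC and in iPSC against ESC. Under it 1 passed in OSKM NSC against day 6 (6), in brain NSC against MEF and on day 6 against MEF, 2 on day 6 against iPSC and ESC (4), and 3 in iPSC and ESC against MEF (7). A larger pseudocount lowers the ratios of low genes by construction, so calls on members at a few RPKM rest on this setting.

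Leaving out 1 library of a pair gave 6 to 10 members in OSKM NSC against day 6, the 10 without T- NSC, where Foxa1, Foxa2, Foxf2 and Foxs1 joined. It gave 6 to 8 in OSKM NSC against MEF, the 8 without T+ NSC, and 1 to 8 against brain NSC, the 8 without T- NSC. It gave 6 on day 6 against iPSC and ESC, and 8 in iPSC and ESC against MEF. No paired analysis was possible because each group has 1 library.

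Median-of-ratios scaling shifts all genes by 0.25 in MEF and -0.30 in T+ NSC on the log2 scale. Under it the share of higher genes among all those called was 48.3% in OSKM NSC against day 6 (62.0% as deposited), 19.2% in OSKM NSC against MEF (33.2%), 63.7% in T+ NSC against T- NSC (75.9%) and 35.2% in iPSC and ESC against MEF (45.2%). Foxj1 and Foxb1 did not pass against MEF, nor Foxb1 against day 6, under it. Depth limits the members near 0: in the shallowest library, T+ NSC, 3 reads of Foxa1 correspond to 0.0495 RPKM.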

Other observations

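Foxl2os is a transcript on the strand opposite to Foxl2. MEF had 0.4902 RPKM, T+ NSC 0.0917, T- NSC 0.0612, iPSC 0.308 and ESC 0.254, and it stood at 0 in day 6 cells and brain NSC. Its exons share bases with Foxl2, which had 0.353 RPKM in MEF.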
